A study of Cucumis melo with 62 samples.

Results

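CmAAT1 (gene ID MELO3C024771.2) and CmAAT2 (MELO3C024766.2) are alcohol acyltransferases of melon (Cucumis melo) fruit. Both were taken by their gene IDs, as 2 of the 29980 IDs in the deposited tables, and both were read in all 62 libraries. Alcohol acyltransferases join the acyl group of an acyl-CoA to an alcohol and so form the volatile esters that give ripe melons much of their fruity aroma. In aromatic climacteric melons the synthesis of these esters depends strongly on the ripening hormone ethylene. The recombinant CmAAT1 protein is known to make a wide range of esters, whereas CmAAT2, a closely related copy, was inactive in such assays as isolated. Because the genes are closely related, reads from one may have been counted for the other, and how the counting treated shared reads is not given in the sources used here.

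RNA was taken from mature fruit at about 45 days after flowering, and every library is labelled wild type. The cultivars TTDV and F39 were grown at Georgia, North Carolina, Uvalde (Texas), Arizona and California in 2019 and at Uvalde in 2018. TTDV alone was grown at Indiana in 2019. At Weslaco, Texas, 8 other cultivars were grown in 2019, named Infinite Gold, HD252, HD150, CRUSER, OC164, PRIMO, TH-6 and TH-5. There were 3 libraries per cultivar and environment, except for TTDV at Georgia with 2, giving 20 TTDV, 18 F39 and 24 Weslaco libraries. The labels do not say whether replicate libraries came from separate plants, so each p-value measures only the spread between these samples. No marker of fruit tissue was examined, since no table paired gene IDs with products.

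Library totals were 6251302 to 31333150 reads for TTDV and F39 and 4041908 to 21290476 at Weslaco, and the lowest count of either gene corresponded to 2674 normalised reads, so counting error was small beside the spread between libraries. Levels are given in kiloreads, units of 1000 reads divided by the size factor of the library, and differences are on the deposited log2-like scale, on which a doubling at the lowest of these levels moves the value by 0.99. The cultivar labels were checked with 25 marker genes that separated TTDV from F39 at North Carolina, Uvalde 2018, Arizona and California. At Uvalde 2019, 6 of 6 libraries had the markers of the other cultivar, and the labels were kept as given. F39 Georgia libraries 2 and 3 had 36% and 32% of the markers on the TTDV side, against 0% in library 1. An exchange of the Uvalde 2019 labels would turn the sign of each cultivar difference there. The main results that use the Uvalde 2019 libraries or F39 Georgia libraries 2 and 3 are also given without them. Leaving out the Georgia pair leaves 1 F39 library in that field.

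CmAAT1 was among the abundant transcripts of these fruits. It took 0.204% to 1.87% of the reads of a TTDV library, 0.0180% to 2.82% of an F39 library and 0.519% to 2.50% of a Weslaco library. Between the lowest and the highest library it spanned 13-fold in TTDV, 203-fold in F39 and 7.02-fold at Weslaco. In bulk tissue, fewer expressing cells and less RNA per cell cannot be told apart.

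CmAAT1 was low in F39 fruit of Uvalde 2018 and Arizona. At Uvalde 2018 it had 109.9, 80.8 and 28.4 kiloreads in TTDV fruit, against 52.8, 6.48 and 2.67 kiloreads in F39 fruit. The highest F39 library there lay above the lowest TTDV library, and the other 2 F39 libraries were the lowest of all 62. At Arizona, TTDV fruit had 138, 151 and 137 kiloreads, against 9.22, 30.1 and 26.5 kiloreads in F39 fruit. Every TTDV library at Arizona lay above every F39 library, but the share of all genes without overlap there was not counted.

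In the other environments the libraries of both cultivars overlapped. At Georgia, CmAAT1 had 87.1 and 66.1 kiloreads in TTDV fruit, against 36.6, 252 and 542 kiloreads in F39 fruit. F39 Georgia libraries 2 and 3, with mixed cultivar markers, were far above library 1, and library 3 was the highest of all 62. At North Carolina, TTDV fruit had 98.7, 158 and 352 kiloreads, against 209.6, 80.5 and 136 kiloreads in F39 fruit. At California, TTDV fruit had 66.7, 78.3 and 33.6 kiloreads, against 48.9, 42.2 and 71.1 kiloreads in F39 fruit. All 6 California libraries thus lay between 33.6 and 78.3 kiloreads. At Uvalde 2019, the libraries labelled TTDV had 109, 109.8 and 132 kiloreads, against 88.9, 89.6 and 354 kiloreads in those labelled F39. TTDV fruit of Indiana had 368, 112 and 119 kiloreads, with 1 library well above the other 2.

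**Figure D1:**
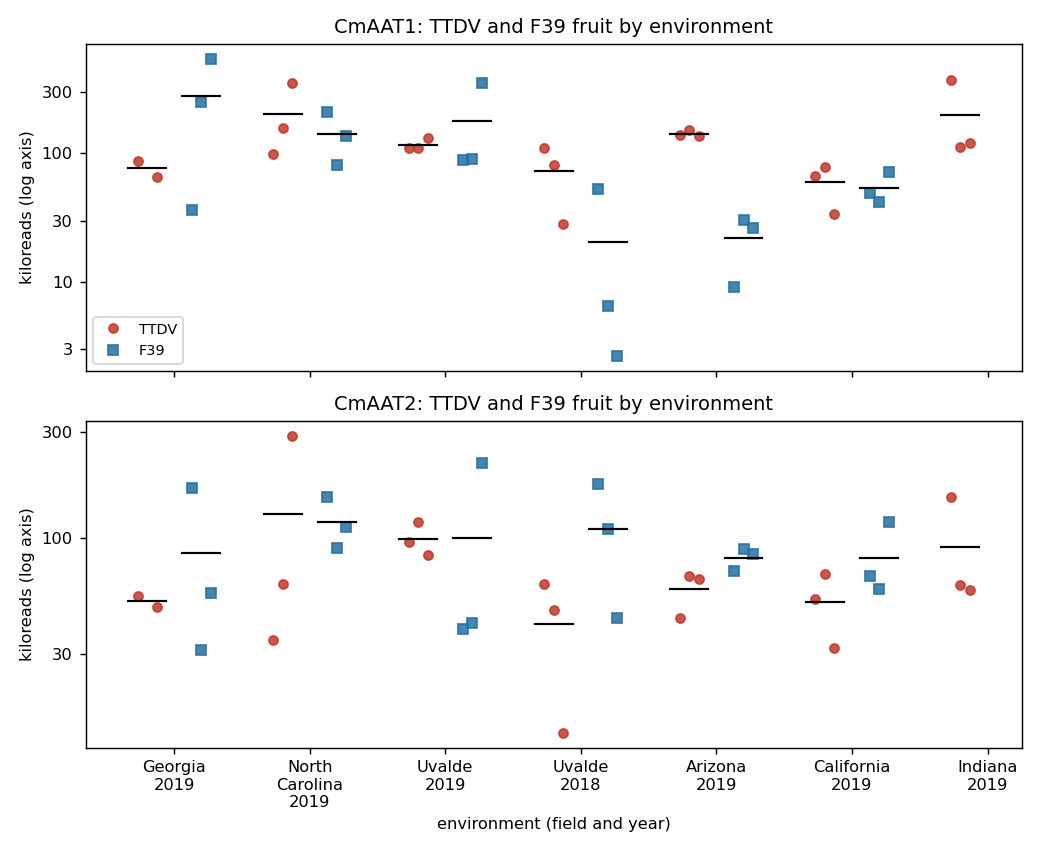
Normalised reads of CmAAT1 and CmAAT2 in each TTDV and F39 library (vertical axis, kiloreads, logarithmic) by environment (horizontal axis), with points for libraries and bars for group means. CmAAT1 in F39 fruit was as low as 2.67 kiloreads at Uvalde 2018 and 9.22 kiloreads at Arizona, while no F39 library was under 31.3 kiloreads of CmAAT2.

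The comparison of the cultivars asks whether TTDV and F39 fruit differ in the expression of these genes in the same field. For CmAAT1 at Uvalde 2018, TTDV was higher by 2.69 ± 0.85 (SE, limma adjusted p = 0.0231), and 21.5% of the genes tested were called in that comparison. Leaving out F39 library 2 or 3 or TTDV library 1 or 2 of Uvalde 2018 ended this call, with differences of 1.77 to 2.52 and adjusted p of 0.0746 to 0.171. At Arizona the difference was 2.86 ± 0.85 (95% confidence interval 1.13 to 4.60) with adjusted p = 0.11, where 1.28% of genes were called, so a difference larger than that of Uvalde 2018 did not pass. The same difference passed in 3 of 10 other settings, with adjusted p up to 0.146 over the 10. These were the fit with only the Arizona groups (adjusted p = 0.0134), sample weights (2.76, adjusted p = 6.59e-05) and leaving out F39 Georgia libraries 2 and 3. Of the 38 fits without 1 library, 2 passed (limma adjusted p from 0.0437 to 0.422). With only the Uvalde 2018 groups in the fit, the adjusted p there was 0.134.

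The remaining environments gave no call for CmAAT1. The difference, TTDV minus F39, was -1.17 ± 0.95 at Georgia (adjusted p = 0.614, 2.26% of genes called). It was 1.05 there without F39 Georgia libraries 2 and 3, with 1 F39 library left. It was 0.42 ± 0.85 at North Carolina (adjusted p = 0.829, 4.07% called) and 0.09 ± 0.85 at California (adjusted p = 0.967, 16.8% called). As labelled, it was -0.28 ± 0.85 at Uvalde 2019 (adjusted p = 0.9, 4.77% called). The confidence intervals at California (-1.65 to 1.82) and North Carolina (-1.32 to 2.15) include changes of several fold in either direction.

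Averaged over the 6 shared environments, CmAAT1 differed by 0.77 ± 0.35 between TTDV and F39 (adjusted p = 0.182, 9.33% of genes called). It passed in 3 of 10 other settings, with adjusted p up to 0.245 over the 10. These were quantile normalization (1.02, adjusted p = 0.0269), sample weights, which count scattered libraries less (0.91, adjusted p = 0.00714), and leaving out F39 Georgia libraries 2 and 3 (1.14). Of the 38 fits without 1 library, 1 passed (limma adjusted p from 0.0480 to 0.278). The test that the difference between cultivars was the same in the 6 environments gave adjusted p = 0.0449 for CmAAT1, where 29.4% of genes were called. That call was narrow: it was lost when any 1 of 27 of the 38 libraries was left out, with adjusted p between 0.00511 and 0.0868 over all 38. Without the Uvalde 2019 libraries it was 0.0597, and without F39 Georgia libraries 2 and 3 it was 0.0632.

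**Figure D2:**
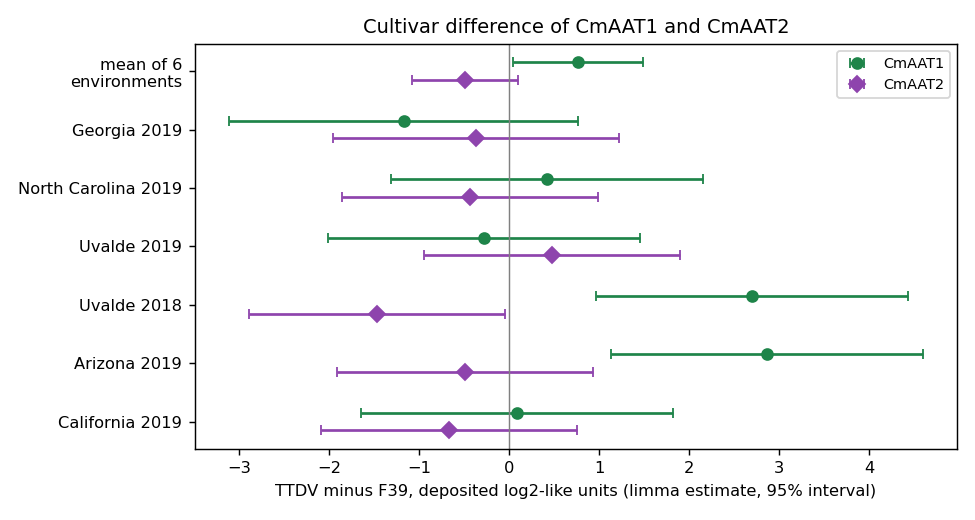
Difference of TTDV minus F39 on the deposited log2-like scale (horizontal axis) with its 95% confidence interval from limma, for CmAAT1 and CmAAT2 in each shared environment and averaged over them. CmAAT1 stood at 2.69 at Uvalde 2018 and 2.86 at Arizona, and every interval of CmAAT2 other than that of Uvalde 2018 includes 0.

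Differences between environments were examined within each cultivar. Within F39, CmAAT1 changed between the 6 environments (limma F-test, adjusted p = 0.000873, 37.8% of genes called). Its mean was 277 ± 254 kiloreads at Georgia, 177 ± 153 at Uvalde 2019 as labelled and 142 ± 64.8 at North Carolina (SD, n = 3 each). It was 54.1 ± 15.1 kiloreads at California, 21.9 ± 11.2 at Arizona and 20.7 ± 27.9 at Uvalde 2018 (SD, n = 3 each). The highest mean was 13.4 times the lowest, a ratio that moved to 60.5 without F39 Uvalde 2018 library 1. It moved to 8.59 without F39 Georgia library 3, with or without library 2. The highest mean was then that of Uvalde 2019 as labelled. No ratio of means and no limma fit left out both the Uvalde 2019 libraries and F39 Georgia libraries 2 and 3. The adjusted p stayed between 2.22e-06 and 0.0173 under the other settings and between 5.59e-05 and 0.00535 when single libraries were left out. Without the Uvalde 2019 libraries it was 0.00209, and without F39 Georgia libraries 2 and 3 it was 0.000991.

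Of the 15 pairs of environments in F39, 6 differed in CmAAT1, while 9.94% of all such gene comparisons were called. Uvalde 2018 was lower than Georgia, North Carolina, Uvalde 2019 and California. The difference of Georgia minus Uvalde 2018 was 4.13 (adjusted p = 0.00226) and that of North Carolina minus Uvalde 2018 was 3.76 (adjusted p = 0.0016), each ± 0.85 SE. Arizona was lower than North Carolina by a difference of -2.76 (adjusted p = 0.0331) and than Uvalde 2019 by -2.86 (adjusted p = 0.0437). California minus Uvalde 2018 was 2.43 (adjusted p = 0.0355) and Uvalde 2018 minus Uvalde 2019 was -3.85 (adjusted p = 0.00138). North Carolina minus Uvalde 2018 passed under each of the other settings and without any single library, with adjusted p of at most 0.0272. Georgia minus Uvalde 2018 was 1.91 without F39 Georgia libraries 2 and 3, with 1 F39 library left at Georgia. Fits with only the compared groups ended the calls of Georgia (adjusted p = 0.162), California (0.106) and Uvalde 2019 (0.0646) against Uvalde 2018. California minus Uvalde 2018 was also lost without F39 Uvalde 2018 library 2 or 3 or any F39 California library (1.51 to 2.59, adjusted p 0.0648 to 0.249). Arizona minus North Carolina was lost without any F39 Arizona library or F39 North Carolina library 1 or 3 (-3.08 to -2.22, adjusted p 0.0501 to 0.166). Of these 6 pairs, 2 rest on the Uvalde 2019 libraries labelled F39, and that of Arizona was lost in 15 of 38 fits without 1 library and in 5 of 9 other settings. Between neighbours in the order of the means, none of the 5 steps was called in limma (lowest adjusted p = 0.409).

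Within TTDV the means of CmAAT1 were closer together. They ran from 203 ± 132 kiloreads at North Carolina and 199.9 ± 146 at Indiana through 142 ± 7.70 at Arizona and 117 ± 13 at Uvalde 2019 as labelled (SD, n = 3 each). They continued with 76.6 ± 14.9 at Georgia (n = 2), 73 ± 41.3 at Uvalde 2018 and 59.6 ± 23.2 at California (SD, n = 3 each). This is also their order by the mean deposited value, and no neighbours in it differed (limma, lowest adjusted p = 0.683). The highest mean was 3.4 times the lowest. The test over the 7 environments gave adjusted p = 0.388 (31.7% of genes called), and among the 21 pairs 0 were called in limma, with 0 at an unadjusted p below 0.05 and 7.38% of all such gene comparisons called.

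With both cultivars given equal weight, no location stood apart from the other 4 shared fields of 2019 in CmAAT1. North Carolina differed by 0.92 ± 0.48 (adjusted p = 0.177, 19.6% of genes called) and Uvalde by 0.61 ± 0.48 (adjusted p = 0.382, 20.3% called). Georgia differed by 0.40 ± 0.52 (adjusted p = 0.67, 9.27% called), and by -0.71 without F39 Georgia libraries 2 and 3. Arizona differed by -1.0 ± 0.48 (adjusted p = 0.227, 4.82% called) and California by -0.94 ± 0.48 (adjusted p = 0.431, 0.570% called). With sample weights, North Carolina was called higher (0.82, adjusted p = 0.0281), and Arizona (-0.92, adjusted p = 0.012) and California (-0.86, adjusted p = 0.0398) lower. Indiana against the other 5 fields of TTDV differed by 0.71 ± 0.66 (adjusted p = 0.838, 0.0173% called).

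The year comparison at Uvalde did give a call. CmAAT1 was higher in 2019 than in 2018 by 2.37 ± 0.60 (limma adjusted p = 0.00631, 21.4% of genes called). The 6 libraries of 2019 held 88.9 to 354 kiloreads, against 2.67 to 109.9 kiloreads in the 6 of 2018, and the years overlapped through TTDV library 1 of 2018. The cultivars have equal weight, so an exchange of labels within 2019 would leave this value as it is. With only the Uvalde groups in the fit, the adjusted p was 0.0513. Within the cultivars as labelled, Uvalde 2018 minus Uvalde 2019 was -3.85 in F39 (limma adjusted p = 0.00138) and -0.88 in TTDV (adjusted p = 0.564), each ± 0.85. The change was thus called in F39 alone, and an exchange of labels would alter both of these values.

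In the same fruits, no comparison of cultivar, field or year passed the threshold for CmAAT2 with all libraries weighted equally. It spanned 21.7-fold over the TTDV libraries and 6.94-fold over the F39 libraries. At Uvalde 2018 it had 61.8, 47.5 and 13.3 kiloreads in TTDV fruit, against 174, 109.9 and 43.4 kiloreads in F39 fruit. The libraries overlapped, with the lowest F39 library under 2 of the TTDV libraries. At Arizona, TTDV fruit had 43.6, 67.3 and 65.6 kiloreads, against 70.9, 88.8 and 84.7 kiloreads in F39 fruit. The cultivars did not overlap there, with F39 on the higher side, opposite to CmAAT1. That difference of CmAAT2 was not called (limma adjusted p = 0.963), and the share of all genes without overlap there was not counted.

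At Georgia, CmAAT2 had 54.7 and 48.9 kiloreads in TTDV fruit, against 168, 31.3 and 56.4 kiloreads in F39 fruit. F39 Georgia library 1, the lowest of its group in CmAAT1, was the highest in CmAAT2. At California, TTDV fruit had 53.3, 68.6 and 31.9 kiloreads, against 67.1, 59.1 and 118 kiloreads in F39 fruit. At North Carolina, TTDV fruit had 34.7, 62.3 and 287 kiloreads, against 153, 89.9 and 112 kiloreads in F39 fruit. In both fields the cultivars overlapped, and TTDV North Carolina library 3 was the highest of all 62 libraries in CmAAT2 and among the 6 highest in CmAAT1. At Uvalde 2019, libraries labelled TTDV had 96.0, 117 and 84.1 kiloreads, against 39.1, 41.4 and 218 kiloreads in those labelled F39. TTDV fruit of Indiana had 153, 61.5 and 58.4 kiloreads, and library 1 was the highest of that group in both genes.

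The difference of TTDV minus F39 in CmAAT2 was -1.47 ± 0.70 at Uvalde 2018 (limma adjusted p = 0.132), -0.67 ± 0.70 at California (0.572) and -0.49 ± 0.70 at Arizona (0.963). It was -0.43 ± 0.70 at North Carolina (adjusted p = 0.775), -0.37 ± 0.78 at Georgia (0.894) and 0.48 ± 0.70 at Uvalde 2019 as labelled (0.759). Without F39 Georgia libraries 2 and 3 the value at Georgia, with 1 F39 library left, was -1.70. Without F39 Uvalde 2019 library 3 the value at Uvalde 2019 was 1.29 (adjusted p = 0.371). Of these 6 values, 5 were negative, and the mean over the environments was -0.49 ± 0.29 (adjusted p = 0.32, confidence interval -1.09 to 0.10). That mean was -0.71 without F39 Georgia libraries 2 and 3 (adjusted p = 0.142) and -0.69 without the Uvalde 2019 libraries (adjusted p = 0.115). Without TTDV North Carolina library 3 and F39 Uvalde 2019 library 3, in which both genes were the highest of their group, the value at Uvalde 2018 was unchanged at -1.47 and had adjusted p = 0.0435. The test of equal cultivar differences gave adjusted p = 0.634 for CmAAT2, and 0.0327 with sample weights. With these weights the difference at North Carolina was -1.07 (adjusted p = 0.0364).

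Across environments, the F39 means of CmAAT2 ran from 81.3 to 118 kiloreads, a ratio of 1.45 (limma F-test, adjusted p = 0.9, and 0.0196 with sample weights). That ratio was 2.69 without F39 Georgia library 1 and 2.94 without F39 Uvalde 2019 library 3. None of the 15 F39 pairs was called, and 0 had an unadjusted p below 0.05. The TTDV means ran from 40.9 ± 25 kiloreads at Uvalde 2018 to 128 ± 139 kiloreads at North Carolina (SD, n = 3 each; adjusted p = 0.422). None of the 21 TTDV pairs was called in limma, with 1 at an unadjusted p below 0.05. By the deposited values, North Carolina was the highest and Georgia the lowest F39 environment, while Uvalde 2019 as labelled was the highest and Uvalde 2018 the lowest TTDV environment. No neighbours in either order differed (lowest adjusted p = 0.804 in F39 and 0.734 in TTDV).

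The locations likewise gave no call in CmAAT2. The differences from the other 4 fields were 0.56 ± 0.39 at North Carolina (limma adjusted p = 0.334), 0.24 ± 0.39 at Uvalde 2019 (0.696) and -0.11 ± 0.39 at Arizona (0.906). They were -0.30 ± 0.39 at California (adjusted p = 0.803) and -0.39 ± 0.43 at Georgia (0.609), where it was 0.28 without F39 Georgia libraries 2 and 3 (adjusted p = 0.809). For Indiana in TTDV the value was 0.32 ± 0.54 (adjusted p = 0.921), and for 2019 minus 2018 at Uvalde it was 0.56 ± 0.49 (adjusted p = 0.436). The year difference of CmAAT2 thus had a confidence interval of -0.45 to 1.57, against 1.14 to 3.59 for CmAAT1.

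Among the 8 Weslaco cultivars, CmAAT2 was highest in PRIMO and CRUSER and lowest in HD150 and HD252. It changed between the cultivars in limma's F-test (adjusted p = 0.000649, 58% of genes called, so most genes differed somewhere among them). PRIMO fruit had 55.1, 34.6 and 60.6 kiloreads and CRUSER fruit 35.3, 43.3 and 29.7 kiloreads. HD150 fruit had 18.7, 11.9 and 10.4 kiloreads and HD252 fruit 12.4, 20.1 and 7.98 kiloreads. All 6 libraries of PRIMO and CRUSER lay above all 6 of HD150 and HD252. The share of all genes so separated was not counted. TH-6 fruit had 28.9, 31 and 23.8 kiloreads and TH-5 fruit 20.8, 20.9 and 35.1 kiloreads. OC164 fruit had 20.1, 13.1 and 25 kiloreads and Infinite Gold fruit 14.7, 16.2 and 21.7 kiloreads. By their means these 4 cultivars lay between the others. Each of the 8 overlapped with the pooled range of the other 7, but not every pair of cultivars overlapped.

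Against the mean of the other 7 cultivars, CmAAT2 was higher in PRIMO by 1.28 ± 0.26 (limma adjusted p = 0.0012, 29.2% of genes called). It was higher in CRUSER by 0.76 ± 0.26 (adjusted p = 0.0334, 27.6% called). It was lower in HD252, with a difference of -0.95 ± 0.26 (adjusted p = 0.00937, 28.2% called), and in HD150, with -0.87 ± 0.26 (adjusted p = 0.0326, 11.9% called). PRIMO kept its call in each of the other settings and without any single library. CRUSER lost it after quantile normalization (0.33, adjusted p = 0.374), with sample weights (0.74, adjusted p = 0.207) and without its own library 1 (adjusted p = 0.107) or 2 (adjusted p = 0.134). HD252 lost it after quantile normalization (-0.61, adjusted p = 0.0866) and without its library 3, the lowest of all 62 (-0.63, adjusted p = 0.129). HD150 lost it after quantile normalization (-0.75, adjusted p = 0.0649) and without its library 2 (adjusted p = 0.163) or 3 (adjusted p = 0.201).

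The other 4 cultivars were not called in CmAAT2. TH-6 differed by 0.35 ± 0.26 (limma adjusted p = 0.522, 2.58% of genes called) and TH-5 by 0.17 ± 0.26 (adjusted p = 0.718, 13.1% called). OC164 differed by -0.30 ± 0.26 (adjusted p = 0.46, 15.8% called) and Infinite Gold by -0.43 ± 0.26 (adjusted p = 0.392, 4.98% called).

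Of the 28 pairs of cultivars, 9 differed in CmAAT2, while 16.1% of all such gene comparisons were called. PRIMO was higher than HD252 by 1.95 (adjusted p = 0.000185), HD150 by 1.88 (0.000448), Infinite Gold by 1.49 (0.00964), OC164 by 1.38 (0.00515) and TH-5 (TH-5 minus PRIMO -0.97, 0.0371), each ± 0.34 SE. CRUSER was higher than HD252 by 1.5 (adjusted p = 0.00183) and HD150 by 1.43 (0.0041). TH-6 minus HD252 was 1.14 (adjusted p = 0.0224), and OC164 minus CRUSER was -0.93 (adjusted p = 0.0499). The differences of PRIMO from HD252 and HD150 and of CRUSER from HD150 passed under each of the other settings and without any single library. After quantile normalization CRUSER minus HD252 was 0.82 (adjusted p = 0.0664) and TH-6 minus HD252 was 0.88 (adjusted p = 0.0717). OC164 minus CRUSER was lost in 17 of 24 fits without 1 library, TH-5 minus PRIMO and TH-6 minus HD252 in 4 each, and PRIMO minus Infinite Gold without PRIMO library 1 (adjusted p = 0.0582). PRIMO minus OC164 had adjusted p = 0.0532 with only these groups in the fit. The order of the means was PRIMO (50.1 ± 13.7 kiloreads), CRUSER (36.1 ± 6.83), TH-6 (27.9 ± 3.70), TH-5 (25.6 ± 8.20), OC164 (19.4 ± 5.97), Infinite Gold (17.5 ± 3.66), HD150 (13.7 ± 4.43) and HD252 (13.5 ± 6.14; SD, n = 3 each). No neighbours in this order differed in limma (lowest adjusted p = 0.497).

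**Figure D3:**
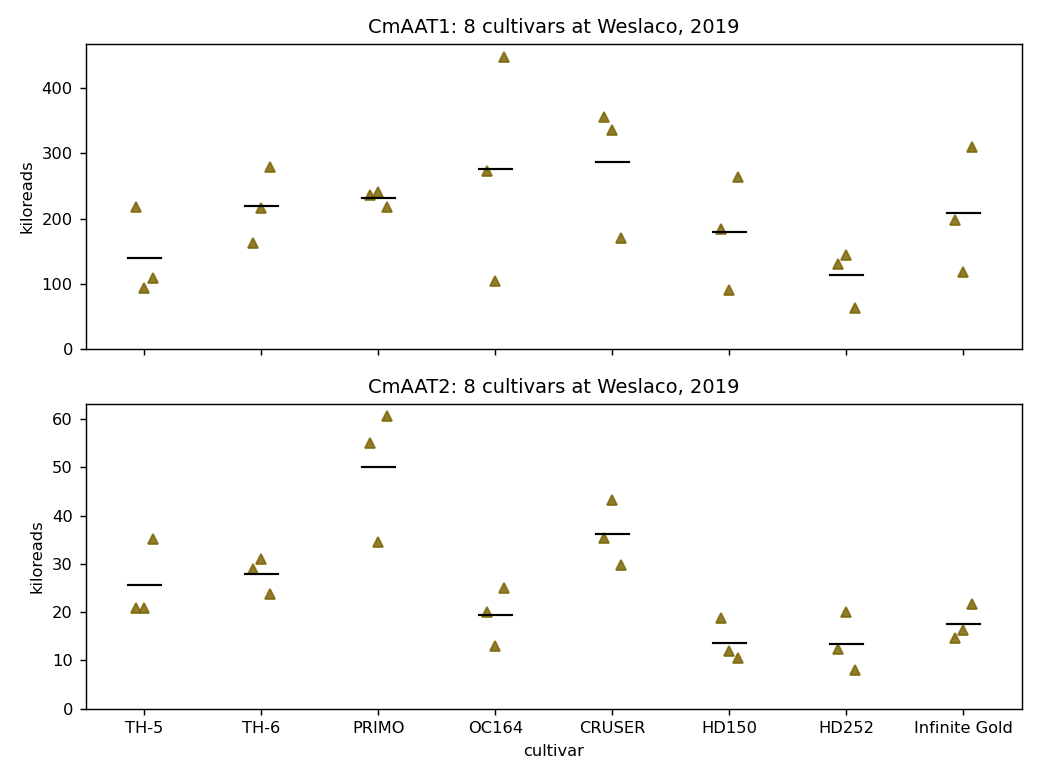
Normalised reads of CmAAT1 and CmAAT2 in each library of the 8 Weslaco cultivars (vertical axis, kiloreads, from 0), with points for libraries and bars for group means. CmAAT2 means ran from 50.1 kiloreads in PRIMO to 13.5 kiloreads in HD252, and CmAAT1 means from 287 kiloreads in CRUSER to 113 kiloreads in HD252.

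CmAAT1 was not called between the Weslaco cultivars (limma F-test, adjusted p = 0.255). CRUSER fruit had 356, 335 and 171 kiloreads and HD252 fruit 131, 144 and 63.9 kiloreads. PRIMO fruit had 237, 240.1 and 218 kiloreads, the narrowest range of the 8, and OC164 fruit had 273, 105 and 448 kiloreads, the widest. TH-6 fruit had 163, 216 and 278 kiloreads and TH-5 fruit 218, 94.1 and 109.8 kiloreads. HD150 fruit had 185, 91.3 and 265 kiloreads and Infinite Gold fruit 199, 118 and 310.3 kiloreads. All 24 libraries thus held at least 63.9 kiloreads, and every cultivar overlapped with the pooled range of the other 7. Not every pair of cultivars overlapped, since all libraries of CRUSER, PRIMO and TH-6 lay above all of HD252. How many genes were separated in this way was not counted.

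The difference of each cultivar from the other 7 in CmAAT1 ran from -0.92 ± 0.40 in HD252 (limma adjusted p = 0.0917) to 0.64 ± 0.40 in CRUSER (adjusted p = 0.239). The values between them were -0.57 in TH-5, -0.20 in HD150, 0.07 in Infinite Gold, 0.24 in TH-6, 0.36 in PRIMO and 0.38 in OC164, each ± 0.40, with adjusted p from 0.365 to 0.951. One of the 28 pairs was called, CRUSER minus HD252 at 1.36 ± 0.53 (adjusted p = 0.0462). It was lost in 12 of 24 fits without 1 library and was 0.45 after quantile normalization (adjusted p = 0.558). HD252 was the lowest cultivar in both genes, and CRUSER the highest in CmAAT1 and the second highest in CmAAT2. The order of the CmAAT1 means was CRUSER (287 ± 102 kiloreads), OC164 (275 ± 172), PRIMO (232 ± 12.0), TH-6 (219 ± 57.7), Infinite Gold (209 ± 96.5), HD150 (180.2 ± 86.7), TH-5 (140.5 ± 67.2) and HD252 (113 ± 43.0; SD, n = 3 each). None of the neighbours differed in limma (lowest adjusted p = 0.773).

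Both genes varied more between libraries of a group than most genes did. The SD within groups of CmAAT1, pooled over groups, was 1.10 on the deposited scale in TTDV and F39, larger than that of 97.2% of the genes tested, and 0.67 at Weslaco, larger than that of 89.4%. For CmAAT2 it was 0.89 (larger than 93.9% of genes) and 0.42 (larger than 64.9%). The median gene had 0.41 and 0.36. The rank was highest for CmAAT1 in TTDV and F39 and lowest for CmAAT2 at Weslaco.

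The size factors of both deposited tables lay on 1 common scale. Levels can thus be set side by side, without a test since cultivar, field and table change together. The median of CmAAT1 was 207 kiloreads over the Weslaco libraries, against 109.9 kiloreads in TTDV and 62 kiloreads in F39. For CmAAT2 the order was the opposite, with 21.3 kiloreads at Weslaco, 61.7 kiloreads in TTDV and 86.8 kiloreads in F39.

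At Arizona and Uvalde 2018 the difference of TTDV minus F39 had opposite signs in CmAAT1 and CmAAT2. So it did at North Carolina (0.42 and -0.43), California (0.09 and -0.67) and, as labelled, Uvalde 2019 (-0.28 and 0.48). At Georgia both differences were negative (-1.17 and -0.37). Of these differences, only that of CmAAT1 at Uvalde 2018 was called in limma. The balance of the genes was therefore computed in each library as the log2 ratio of CmAAT1 reads to CmAAT2 reads. The ratio also holds the lengths of both genes, so only its differences between groups are read, as a description with no test, since the ratio was taken up after these levels were seen. Any error in a library's size factor cancels in it. It was 0.77 ± 0.50 over the 20 TTDV libraries (SD, range -0.10 to 1.66) and -0.56 ± 2.07 over the 18 F39 libraries (range -4.08 to 3.26). In TTDV the environment means stayed between 0.20 ± 0.12 at California and 1.29 ± 0.32 at Arizona. In F39 they were -3.28 ± 1.34 at Uvalde 2018, -2.06 ± 0.77 at Arizona, -0.56 ± 0.15 at California, 0.19 ± 0.32 at North Carolina, 1.00 ± 0.26 at Uvalde 2019 as labelled and 1.36 ± 3.08 at Georgia (SD, n = 3 each).

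The ratio thus held within a narrow band in TTDV and ranged widely in F39. The 3 F39 libraries of Georgia had -2.20, 3.01 and 3.26, and the last 2, with mixed cultivar markers, lay above every other TTDV and F39 library. At Uvalde 2018 and Arizona every TTDV library had a ratio of at least 0.76 and every F39 library one of at most -1.56. At Weslaco the ratio was 3.05 ± 0.72 over 24 libraries (SD, range 1.65 to 4.67), with cultivar means from 2.25 ± 0.49 in PRIMO to 3.64 ± 0.59 in OC164.

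Averaged over the 6 shared environments, the ratio was higher in TTDV than in F39 by 1.26 (17 and 18 libraries), and it was higher in TTDV in 4 of 6 environments as labelled. With the Uvalde 2019 libraries left out the difference was 1.67, with F39 Georgia libraries 2 and 3 left out it was 1.86, and with both sets left out it was 2.38. Leaving out single libraries gave 0.97 to 1.42. At Uvalde 2019 the mean ratio was 0.25 ± 0.38 in the libraries labelled TTDV and 1.00 ± 0.26 in those labelled F39 (SD, n = 3 each), so an exchange of these labels would put TTDV on the higher side there.

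Each gene alone was also compared over the environments by an exact permutation test, two-sided and added after the values were seen, that exchanged cultivar labels within environments. CmAAT1 differed between TTDV and F39 by 0.77 with all libraries (exact p = 0.101) and by 0.98 without Uvalde 2019 (exact p = 0.0734). Leaving out F39 Georgia libraries 2 and 3 leaves 1 F39 library at Georgia, so only the differences are given for it. CmAAT1 then differed by 1.14, and by 1.42 without Uvalde 2019 as well. In the latter setting it was higher in TTDV in 5 of 5 environments, among them California with 0.09. CmAAT2 differed by -0.49 with all libraries (exact p = 0.112) and by -0.69 without Uvalde 2019 (exact p = 0.0375). Without F39 Georgia libraries 2 and 3 it differed by -0.71. Without both sets it differed by -0.95 and was lower in TTDV in 5 of 5 environments. With all libraries as labelled neither gene passed, and the values rest on which libraries are kept. These tests share their libraries, and their p-values were not adjusted for the number of tests.

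**Figure D4:**
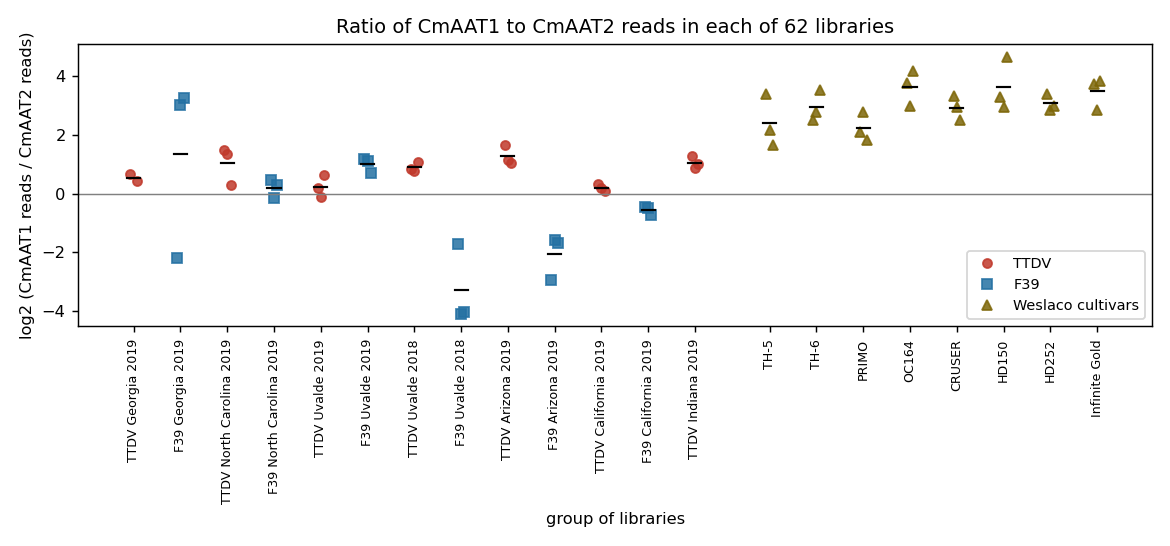
Log2 ratio of CmAAT1 to CmAAT2 reads (vertical axis) in each library, by group (horizontal axis), with points for libraries and bars for means. TTDV libraries lay between -0.10 and 1.66, F39 libraries between -4.08 and 3.26 and Weslaco libraries between 1.65 and 4.67.

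Whether the genes rose and fell together from library to library was examined in 4 sets of libraries, those within TTDV and within F39 added after the values were seen. Both values of a library share its size factor, and libraries of a group share their field. Over the 20 TTDV libraries the deposited values correlated with Pearson's r = 0.841 (permutation p adjusted over the 4 sets 0.00016) and Spearman's rho = 0.630 (adjusted permutation p = 0.0154). Without the 2 libraries farthest from the median of CmAAT2, r was 0.690. Over the 18 F39 libraries r was 0.0994 (adjusted permutation p = 0.695), rho was 0.0072 (adjusted p = 0.98) and r without the farthest 2 was 0.104.

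In TTDV fruit, libraries high in one gene tended to be high in the other, while across all F39 fruit the correlation did not pass the threshold. Without the Uvalde 2019 libraries, r was 0.875 over 17 TTDV libraries (permutation p = 5e-05) and 0.0295 over 15 F39 libraries (permutation p = 0.916). Without F39 Georgia libraries 2 and 3 as well, r over the 13 F39 libraries was 0.565 (permutation p = 0.0442) and rho was 0.533 (permutation p = 0.0634), so the low value over F39 rests on that pair of libraries. Whether the correlation differed between the cultivars was not tested. Over all 38 libraries r was 0.236 (adjusted permutation p = 0.201), rho was 0.152 (adjusted p = 0.477) and r without the farthest 2 was 0.102. Over the 24 Weslaco libraries r was 0.507 (adjusted permutation p = 0.0225), rho was 0.490 (adjusted p = 0.0320) and r without the farthest 2 was 0.403. Taken over deviations from group means, r was 0.925 in TTDV, 0.302 in F39, 0.496 over all 38 libraries and 0.431 at Weslaco.

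**Figure D5:**
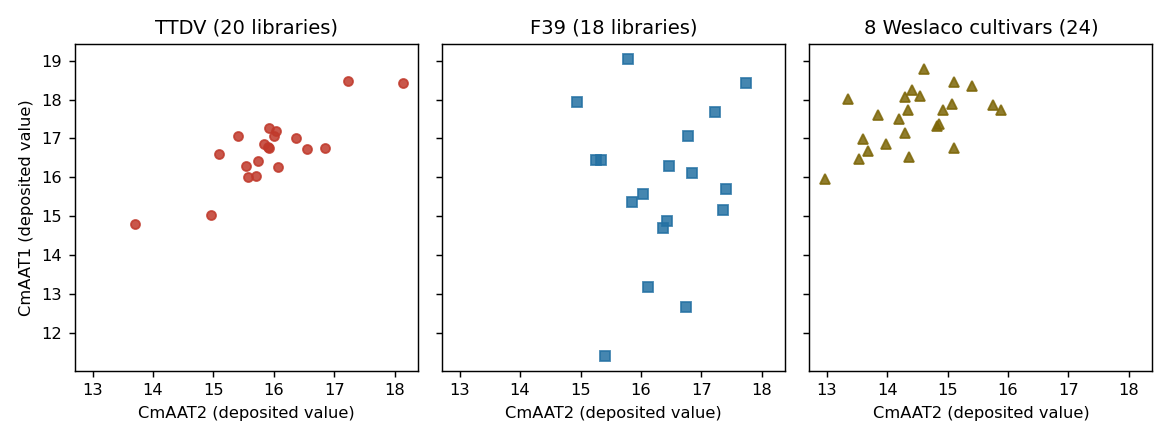
Deposited value of CmAAT1 (vertical axis, log2-like units) against that of CmAAT2 (horizontal axis) with a point per library, for TTDV and F39 and for the Weslaco cultivars. Over TTDV libraries r was 0.841 (rho = 0.630, and r = 0.690 without the 2 farthest libraries), and over F39 libraries it was 0.0994. F39 libraries of Arizona and Uvalde 2018 lay low in CmAAT1 at usual levels of CmAAT2, and F39 Georgia libraries 2 and 3 lay high. Without Uvalde 2019 and those Georgia libraries, r over F39 was 0.565.

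The genes most like each member were sought among the 16584 genes tested in both tables, by the lower of the Pearson correlations over the 38 and over the 24 libraries. For CmAAT1 they were MELO3C012324.2 (r = 0.775 over the 38 libraries and 0.819 over the 24) and MELO3C008139.2 (0.835 and 0.740). MELO3C012324.2 held 7640 to 90258 reads in TTDV, 75.4 to 54285 in F39 and 5842 to 101869 at Weslaco, so it too was abundant and reached its lowest level in F39. The most opposite to CmAAT1 was MELO3C022084.2 (-0.739 and -0.797), which held at most 64.3 reads in any library, followed by MELO3C012275.2 (-0.740 and -0.729). For CmAAT2 the most alike were MELO3C011536.2 (0.700 and 0.718) and MELO3C010338.2 (0.700 and 0.703), and the most opposite were MELO3C009382.2 (-0.719 and -0.745) and MELO3C006942.2 (-0.711 and -0.734). CmAAT2 stood 1711th in likeness to CmAAT1, and CmAAT1 stood 2158th in likeness to CmAAT2, so many genes followed each member more closely than the other member did.

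The IDs of the members differ by 5 in their running number, and 14 other IDs numbered within 10 of them were in the tables. Of these, 10 were tested in each table, and their medians were at most 2310 reads, far below the levels of both members. At Uvalde 2018, where CmAAT1 was higher in TTDV, 3 of these 10 were called lower in TTDV and 0 higher (limma), where 21.5% of all genes were called. Among them were MELO3C024760.2 (-2.76 ± 0.67, adjusted p = 0.00397) and MELO3C024769.2 (-1.18 ± 0.31, adjusted p = 0.00719). The latter held few reads, with a median of 1.98 normalised reads over the 38 TTDV and F39 libraries, 12 of which had 0. For the year at Uvalde 1 of the 10 was called higher and 2 lower in 2019, where 21.4% of all genes were called. In HD252, where CmAAT2 was lower, 3 of the 10 were called higher and 1 lower, where 28.2% of all genes were called. In PRIMO, CRUSER and HD150, where CmAAT2 was also called, 0 of the 10 were called in limma. Of all genes, 29.2%, 27.6% and 11.9% were called in these cultivars. In HD252, MELO3C024760.2 and MELO3C024769.2 were among the 3 higher ones, by 2.14 ± 0.42 (adjusted p = 0.00104) and 1.71 ± 0.58 (adjusted p = 0.0328). MELO3C024769.2 held few reads at Weslaco too, with a median of 8.38 normalised reads and 4 of 24 libraries at 0.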

How the data were processed

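Values were deposited by the authors after variance stabilisation, on a log2-like scale. DESeq and DESeq2 are named without versions in the submitters' processing notes. Which aligner, counter, build and annotation were used is not given in the sources used here. Whole reads and size factors were recovered by inverting the stabilising transform, with 100% of values up to 10000 reads within 0.05 of a whole number. The size factors of both tables lay on 1 common scale, since those recomputed over all 62 libraries were 0.961 to 0.976 times the recovered ones. In both tables the lowest value, 4.18, is a count of 0.

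A gene entered the tests if 3 or more libraries of its table were 1 unit or more above that value (about 9.08 normalised reads), 17383 genes for TTDV and F39 and 17131 at Weslaco. The test was limma 3.58.1 in R 4.3.3 on the deposited values with 1 coefficient per group and empirical Bayes moderation with trend and robust settings. The Benjamini-Hochberg adjusted p, over all genes of a comparison, was called below 0.05. A location or cultivar was set against the mean of the others, each with equal weight. The procedure was tested on simulated data with the same noise setting for every gene, which was not matched to the spread of CmAAT1 and CmAAT2.

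Alternatives were no filter, a stricter filter (3 units), plain moderation with neither trend nor robust settings, quantile normalization, sample weights, voom on the recovered reads, the compared groups only, and leaving out single libraries or the libraries named in the text. The ratio adds 0.5 to the reads. Its differences carry no test. The permutation tests of each gene, the correlations within a cultivar and the refits of pairs and mean ratios without libraries were added after the values were seen. Correlations used 100000 resamples, two-sided.

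Labels gave the groups, and the replicate numbers only name libraries. The members and lists were chosen with earlier results of these data known. Named besides the members were the 2 IDs most like each and the 2 most opposite, and at most 2 numbered neighbours each way that were called where a member was. The reference gene table matched 0 of the IDs, so no pathway list, coordinates or sequences are given.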

Additional observations from a re-analysis of the deposited data

Results flagged for a closer look

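The difference of TTDV minus F39 in CmAAT1 was not the same in the 6 shared environments by limma's F-test (adjusted p = 0.0449, 29.4% of genes called), which drew attention to it as an effect that differs between fields. The call was lost in 27 of 38 fits without 1 library (adjusted p up to 0.0868) and in 4 of 10 other settings (adjusted p up to 0.0632). The differences were 2.86 at Arizona, 2.69 at Uvalde 2018, 0.42 at North Carolina, 0.09 at California, -0.28 at Uvalde 2019 as labelled and -1.17 at Georgia. An exchange of the Uvalde 2019 labels would turn the sign of the value there. The negative values came from the 2 fields in which libraries carried markers of the other cultivar, and the part of those libraries in the result was not tested beyond the fits that leave them out.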

How the results depend on the processing

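Besides the changes already given, results moved as follows. The adjusted p of the CmAAT1 interaction was 0.0598 with no filter, 0.0554 with voom, 0.0597 without Uvalde 2019 and 0.0632 without F39 Georgia libraries 2 and 3. After quantile normalization, CmAAT1 over the shared environments was 1.02, at Uvalde 2019 between cultivars 0.14, in OC164 -0.20 and in CRUSER -0.0827, and CmAAT2 was -0.19 for Uvalde, 0.0802 for Arizona, 0.38 for California, 0.33 in CRUSER, -0.75 in HD150 and -0.61 in HD252. With sample weights, the CmAAT1 cultivar difference was 0.91 over the shared environments, 2.76 at Arizona and 0.42 at Uvalde 2019, and its location values were 0.82 for North Carolina, -0.92 for Arizona and -0.86 for California. With the same weights, the CmAAT2 cultivar difference was 0.00325 at Georgia and -1.07 at North Carolina, its location values were -0.12 for Uvalde and 0.19 for Arizona, its year value was -0.10 and CRUSER was 0.74. The adjusted p of its interaction was then 0.0327 and of the F39 environments 0.0196. With the compared groups only, the CmAAT1 differences were as before at 2.69 (Uvalde 2018), 2.86 (Arizona) and 2.37 (year), with other spreads. Without F39 Georgia libraries 2 and 3, CmAAT1 was 1.14 over the shared environments, 1.05 at Georgia between cultivars, 2.86 at Arizona and -0.71 for the location Georgia, where CmAAT2 was 0.28. Without TTDV North Carolina library 3 and F39 Uvalde 2019 library 3, the CmAAT1 cultivar difference was -0.0818 at North Carolina and 0.38 at Uvalde 2019, and CmAAT2 was -1.47 at Uvalde 2018 between cultivars, -0.0539 for the location Uvalde and 0.10 for Arizona.

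Leaving out single libraries gave these ranges for CmAAT1: interaction adjusted p 0.00511 to 0.0868, Uvalde 2018 1.77 to 3.91, Arizona 2.32 to 3.18, shared environments 0.58 to 0.97, North Carolina -0.0818 to 0.83, California -0.15 to 0.45, Uvalde 2019 -0.61 to 0.38, the location Georgia -0.0182 to 0.95, HD252 -1.14 to -0.55, HD150 -0.54 to 0.23, Infinite Gold -0.27 to 0.43 and OC164 -0.0853 to 0.96. For CmAAT2 they were CRUSER 0.62 to 0.90, HD150 -1.12 to -0.70, HD252 -1.29 to -0.63, TH-5 -0.0837 to 0.29, Georgia between cultivars -0.91 to 0.30, North Carolina -1.31 to 0.21, the location Uvalde -0.16 to 0.46 and Indiana -0.13 to 0.56. The log2 ratio differed by 2.38 without Uvalde 2019 and F39 Georgia libraries 2 and 3. The cause of these changes was not tested. Of the other values, 426 kept their direction and side of the threshold under the settings, and 1704 did when a library was left out. With Spearman's correlation, 1 of the 8 genes named as most alike or opposite, MELO3C008139.2, was among the 8 again. Without Uvalde 2019 the comparisons of that field and year give no value. No paired analysis was possible because the columns and labels carry no replicate numbers. Counting error was small beside the spread between libraries for both genes.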

Other observations

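F39 Georgia libraries 2 and 3, in which 36% and 32% of the cultivar markers lay on the TTDV side, had log2 ratios of CmAAT1 to CmAAT2 of 3.01 and 3.26. These lay outside the range of the TTDV libraries (-0.10 to 1.66) and of the other F39 libraries, and inside that of the Weslaco libraries (1.65 to 4.67). At Uvalde 2019 the ratio was -0.10 to 0.65 in the libraries labelled TTDV and 0.70 to 1.19 in those labelled F39. As labelled, the mean ratio there was lower in TTDV (0.25) than in F39 (1.00), and an exchange of the labels would turn that direction.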
